A study of Mus musculus with 12 samples.

Results

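The 48 genes described here are interferon-induced antiviral effectors: enzymes, GTPases, PARP proteins, ubiquitin-like and ligase genes whose transcription interferon is known to raise. They were taken by gene name from the deposited table of 54347 genes. All 48 were found, and all 48 were among the 15319 genes with enough counts to be tested. RNA was sequenced from PYMT cells, a mouse line whose name is that of polyoma middle T, the viral oncoprotein behind a mammary tumour model, grown in matrigel. Cells received BMP4 and TGFB2 together (BMP4-TGFB2), TGFB2 alone, BMP4 alone, or neither ligand (NT), each ligand at 5 ng/mL for 3 days. Medium was then changed in all 4 groups, and cells were collected 2 days later. Each group had 3 libraries, which the labels call biological replicates without saying what separated them, so p-values here measure only the spread between these libraries, which may be technical. The study concerned programs of dormancy, a lasting arrest of tumour cells, under these ligands. No interferon, virus or RNA ligand is named among the treatments. NT replicate 1 stood apart: it was the highest of the 3 NT libraries for 47 of the 48 genes, as for 44.3% of all tested genes. Counts and medians of the falls against NT are therefore also given without it. The fold changes of single genes and role groups include it unless stated.

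Type I and type III interferons bind receptors that activate the kinases JAK1 and TYK2, which phosphorylate STAT proteins. With IRF9 these form a complex that binds a DNA element called the interferon-stimulated response element (ISRE). Another element, the gamma-activated site (GAS), serves interferon gamma. The induced genes encode proteins that sense, degrade or block viral RNA, tag proteins with ISG15, trap virions at membranes or attack the vacuoles of pathogens. Epithelial cells are known to keep a basal level of many of these transcripts without infection.

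Promoter letters are given first, because the ISRE core was common near the start sites of these genes and because the levels below are described with and without it. RefSeq promoter windows (build GRCm38.p6) span 250 bases before to 50 bases after an annotated start, and were given for 36 of the 48 genes, in 42 windows. The ISRE core was searched as GAAA, any 2 bases and GAAA, and the GAS core as TTCNNNGAA, each on both strands. The ISRE core was in 19 of the 42 windows (45.2%), which belong to 18 genes, against 3.44% of all 32851 windows of that length. The GAS core was in 9 windows (21.4%), against 8.3% of all. ISRE matches overlapped each other in 6 genes, and an ISRE match overlapped a GAS match in 2 genes, Bst2 and Ifitm3. The stretches below were chosen after the matches were seen, to show the spread in number and spacing among the members. Capitals mark the ISRE core, and each stretch ends before the start site on the gene's own strand.
Ifit1 (chr19:34640773-34640825, + strand): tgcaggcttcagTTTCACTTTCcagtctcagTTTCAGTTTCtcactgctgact
Ifit3 (chr19:34583361-34583428, + strand): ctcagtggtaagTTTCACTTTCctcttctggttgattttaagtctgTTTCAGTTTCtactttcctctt
Ifit3b (chr19:34607757-34607824, + strand): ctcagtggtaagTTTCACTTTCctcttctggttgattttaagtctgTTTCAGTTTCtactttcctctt
Isg15 (chr4:156200863-156200908, - strand): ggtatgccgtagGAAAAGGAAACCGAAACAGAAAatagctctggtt
Oas1a (chr5:120907526-120907557, - strand): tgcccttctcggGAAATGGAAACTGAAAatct
Oas3 (chr5:120777713-120777746, - strand): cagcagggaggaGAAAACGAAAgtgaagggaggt
Gbp3 (chr3:142559987-142560026, + strand): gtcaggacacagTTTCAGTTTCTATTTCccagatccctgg
Igtp (chr11:58199510-58199543, + strand): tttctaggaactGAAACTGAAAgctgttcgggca
Ddx60 (chr8:61928022-61928086, + strand): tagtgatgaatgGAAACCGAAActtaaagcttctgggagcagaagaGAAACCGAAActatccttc
Bst2 (chr8:71537575-71537614, - strand): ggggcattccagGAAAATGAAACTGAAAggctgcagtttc
The stretches of Ifit3 and Ifit3b were identical over 68 bases, with 0 mismatches. Isg15 held 3 overlapping matches, Ifit1 and Ddx60 held 2 separate ones, and Oas3 and Igtp held 1.

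**Figure D1:**
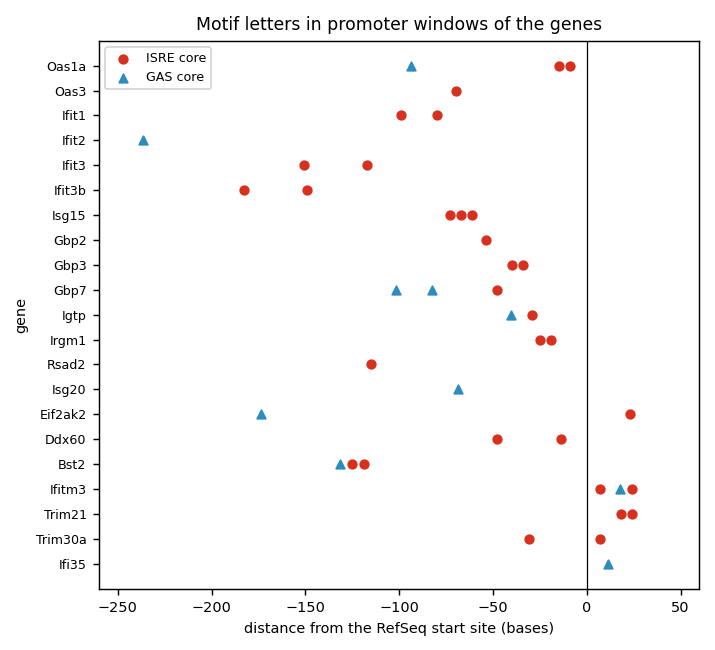
Matches to the ISRE core (circles) and GAS core (triangles) in RefSeq promoter windows, for each gene with a match, against the distance of the match's centre from the annotated start in bases. Of the 36 genes with a window, 18 have an ISRE core, most of them upstream of the start.

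The members fell together with TGFB2, with or without BMP4, and by less with BMP4 alone. With BMP4-TGFB2, 44 of 48 fell against NT, where 12.9% of all tested genes fell (edgeR quasi-likelihood test, Benjamini-Hochberg adjusted p under 0.05 over 15319 genes). With TGFB2 alone 44 fell, against 11.1% of all genes, and with BMP4 alone 20 fell, against 2.25% of all genes. None of the 48 rose by the same test, where 13.3%, 11.3% and 3.19% of all genes rose with BMP4-TGFB2, TGFB2 and BMP4. Fold changes were below 0 for 47 of 48 in each, against 49.6%, 49.3% and 49.9% of all genes. Their median log2 fold change was -3.09 with BMP4-TGFB2, -2.71 with TGFB2 and -1.22 with BMP4, while the median over all tested genes was 0.01, 0.01 and 0.00. In terms of level, the median member stood at 11.8%, 15.3% and 43.1% of its NT level in those 3 groups.

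Every library of BMP4-TGFB2 lay below every NT library for 45 members, as for 21.6% of all genes. The same held for 45 members with TGFB2, against 18.8% of genes, and for 29 members with BMP4, against 13.4% of genes. Summed over the 48 members, the authors' TPM values (a level scaled for gene length and depth) were 1089, 1336 and 1129 with BMP4-TGFB2. They were 1426, 1542 and 1597 with TGFB2, 3452, 2224 and 2273 with BMP4, and 8514, 5250 and 3572 in NT. The lowest NT sum was thus just above the highest BMP4 sum, and all sums with TGFB2 were below both. The sum is carried by few genes: Ifitm3, Bst2, Lgals3bp and Isg15 made up 60.7% to 68.0% of it in every library. Members that averaged at least 10 TPM numbered 18 with BMP4-TGFB2, 21 with TGFB2, 31 with BMP4 and 39 in NT.

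**Figure D2:**
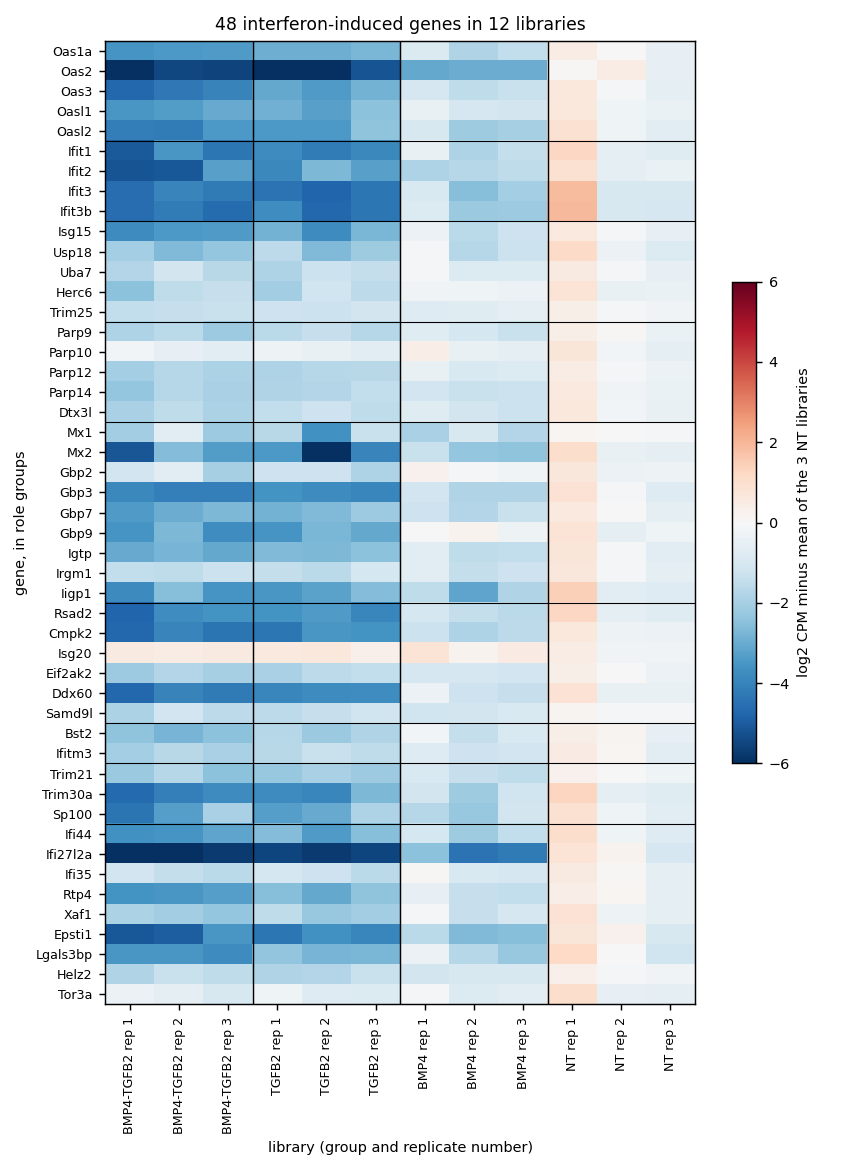
Log2 CPM of each of the 48 genes (rows, in role groups) in each of the 12 libraries (columns), relative to the mean of the 3 NT libraries; blue is lower and red higher, and colours saturate at 6 in both directions. Nearly all rows are blue under both groups with TGFB2 and paler under BMP4, Isg20 is the exception, and NT replicate 1 is the reddest column.

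The 12 libraries had 28543062 to 42167651 counts. Mitochondrial genes held 1.77% to 2.91% of counts with BMP4-TGFB2, 1.84% to 2.96% with TGFB2, 1.40% to 1.76% with BMP4 and 1.14% to 1.95% in NT. Mki67, a marker of cycling cells, had 9.39, 89.4 and 141 CPM with BMP4-TGFB2, 18.2, 106 and 160.4 CPM with TGFB2, 108, 228 and 235 CPM with BMP4, and 188, 320.4 and 268 CPM in NT. Replicate 1 was thus the lowest library of each group. It stood well below its partners with BMP4, and further below them in both groups with TGFB2. The part of either measure in the results was not tested; counts without all 4 replicate 1 libraries are given with the replicates. The 4 sets of markers of other cells were low apart from the epithelial one. Summed CPM (a count scaled to the library total) of 8 mammary epithelial markers was 4831 to 5811 with BMP4-TGFB2, 5274 to 6050 with TGFB2, 4524 to 5622 with BMP4 and 4693 to 5689 in NT. Leukocyte markers (11, of which 5 could be tested) summed to 9.79 to 12.1, 8.98 to 11.6, 7.27 to 9.86 and 2.55 to 5.25 CPM in the same order of groups. Fibroblast markers (8, of which 7 were tested) summed to 14.9 to 29.1, 19.9 to 32.6, 7.48 to 20.9 and 5.13 to 13.5 CPM. The 5 endothelial markers were at 4.57 CPM or less in every library. None of these markers was at 0 in all libraries, and their part in the results was not tested. In bulk RNA, fewer cells that express a gene and less of its RNA per cell cannot be told apart.

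Synthetases of the OAS family sense double-stranded RNA and make short oligoadenylates that switch on the nuclease RNase L. All 5 genes listed for the family, among them the OAS-like Oasl1 and Oasl2, fell with BMP4-TGFB2 and with TGFB2. With BMP4 3 of 5 fell. Oas3 had 5.98, 7.99 and 9.50 CPM with BMP4-TGFB2, 18.9, 15.5 and 22.2 CPM with TGFB2, 76.5, 54.8 and 59.8 CPM with BMP4, and 247, 145 and 110 CPM in NT. The 4 groups of Oas3 did not overlap at any point. Its log2 fold change against NT was -4.40 ± 0.32 (SE, adjusted p = 6.54e-06) with BMP4-TGFB2, -3.17 ± 0.30 (adjusted p = 4.80e-05) with TGFB2 and -1.37 ± 0.28 (adjusted p = 0.0163) with BMP4. Oas1a, another synthetase of the family, had 10.2, 10.8 and 11.1 CPM with BMP4-TGFB2, 15.7, 16.1 and 17.9 CPM with TGFB2, 64.7, 34.5 and 41.5 CPM with BMP4, and 166, 119.6 and 83.4 CPM in NT. The 4 groups of Oas1a did not overlap either, and stood in the same order. Of its exonic 100-base stretches 40.9% also occur in Oas1g, so the split between the paralogs rests on the authors' read assignment.

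Oas2 fell the most of the family with TGFB2. It had 0.193, 0.350 and 0.323 CPM with BMP4-TGFB2, 0.0711, 0 and 0.451 CPM with TGFB2, 2.05, 2.23 and 2.19 CPM with BMP4, and 19.4, 24.2 and 12.6 CPM in NT. The BMP4 libraries lay close together and apart from both sides, while the ranges of BMP4-TGFB2 and TGFB2 overlapped. The log2 fold changes against NT were -6.01 ± 0.71 (adjusted p = 0.000137), -6.73 ± 0.74 (adjusted p = 0.000124) and -3.10 ± 0.60 (adjusted p = 0.0129) with BMP4-TGFB2, TGFB2 and BMP4. Oas1a (chr5:120896256-120907521), Oas2 (chr5:120730333-120749853) and Oas3 (chr5:120753098-120777661) are protein-coding genes on the minus strand of one cluster, by the GENCODE M21 annotation of GRCm38.

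IFIT proteins bind viral RNA that lacks host cap marks and block its translation. All 4 IFIT genes fell in both groups with TGFB2, by a median of -4.74 with BMP4-TGFB2 and -4.60 with TGFB2 on the log2 scale, the lowest median of the 9 role groups in both. These medians include NT replicate 1, which was at 2.68 to 7.98 times the mean of NT replicates 2 and 3 for these genes. Ifit1 had 2.40, 7.04 and 3.88 CPM with BMP4-TGFB2, 5.79, 4.44 and 5.58 CPM with TGFB2, 57.7, 22.1 and 29.2 CPM with BMP4, and 191, 55.2 and 48.9 CPM in NT. Its NT replicate 1 stood far above the other NT libraries, and the BMP4 and NT ranges overlapped. The log2 fold change was -4.45 ± 0.62 (adjusted p = 0.000376) with BMP4-TGFB2 and -4.22 ± 0.61 (adjusted p = 0.00061) with TGFB2, and with BMP4 the value of -1.40 ± 0.54 did not pass (adjusted p = 0.178).

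Ifit3 had 1.40, 2.172 and 1.74 CPM with BMP4-TGFB2, 1.52, 1.25 and 1.66 CPM with TGFB2, 18.1, 5.92 and 8.06 CPM with BMP4, and 131, 17.5 and 17.7 CPM in NT. The replicate 1 libraries were the high ones in BMP4 and NT but not in the groups with TGFB2. Its log2 fold change was -4.94 ± 0.81 (adjusted p = 0.00107) with BMP4-TGFB2 and -5.22 ± 0.82 (adjusted p = 0.00103) with TGFB2. Ifit3 and Ifit3b are near-copies in sequence as well as in the promoter stretch printed above: 31.7% of the 100-base stretches of Ifit3 occur in Ifit3b and 27.4% of those of Ifit3b in Ifit3, so their individual values are uncertain.

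The ISG15 system attaches the ubiquitin-like protein ISG15 to other proteins. All 5 genes fell with BMP4-TGFB2 and with TGFB2, and with BMP4 only Trim25 passed. Isg15 itself had 7.74, 9.56 and 10.01 CPM with BMP4-TGFB2, 14.9, 7.90 and 16.3 CPM with TGFB2, 81.5, 34.9 and 43.9 CPM with BMP4, and 160, 99.7 and 75.1 CPM in NT. BMP4 replicate 1 reached into the NT range, and both groups with TGFB2 were far below. The log2 fold change was -3.60 ± 0.40 (adjusted p = 8.92e-05), -3.11 ± 0.39 (adjusted p = 0.000263) and -1.03 ± 0.36 (adjusted p = 0.138) with BMP4-TGFB2, TGFB2 and BMP4. Usp18, the protease that removes ISG15 and also dampens interferon receptor signalling, had 16.5, 10.8 and 13.6 CPM with BMP4-TGFB2, 23.1, 11.1 and 15.9 CPM with TGFB2, 63.8, 21.5 and 27.5 CPM with BMP4, and 156, 54.3 and 39.4 CPM in NT. Replicate 1 of Usp18 was the highest library in all 4 groups, and the BMP4 and NT ranges overlapped. Trim25, a ubiquitin and ISG15 ligase that also activates the sensor RIG-I, had 61.4, 67.0 and 66.7 CPM with BMP4-TGFB2, 73.6, 71.9 and 81.9 CPM with TGFB2, 101, 104 and 110.2 CPM with BMP4, and 226, 157 and 147 CPM in NT. Its groups did not overlap, and it fell by a log2 fold change of -1.43 ± 0.15 (adjusted p = 6.27e-05) with BMP4-TGFB2, -1.24 ± 0.15 (adjusted p = 0.000202) with TGFB2 and -0.72 ± 0.15 (adjusted p = 0.0163) with BMP4, the last lost without BMP4 replicate 1 or BMP4 replicate 2 (adjusted p = 0.0565 to 0.0609).

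PARP9 and DTX3L act as a complex that modifies histones and viral proteins in interferon-treated cells. Of the 5 genes of this group 4 fell with BMP4-TGFB2 and with TGFB2, and 3 fell with BMP4. Dtx3l had 40.2, 53.4 and 41.2 CPM with BMP4-TGFB2, 55.0, 66.3 and 54.7 CPM with TGFB2, 91.1, 71.3 and 62.1 CPM with BMP4, and 242, 135 and 113 CPM in NT. Every treated library of Dtx3l lay below every NT library. Parp9 had 43.3, 51.7 and 34.2 CPM with BMP4-TGFB2, 51.0, 62.4 and 49.4 CPM with TGFB2, 94.6, 76.0 and 60.2 CPM with BMP4, and 202, 164 and 118 CPM in NT. As for Dtx3l, no treated library reached the NT range. Parp9 gave log2 fold changes of -1.89 ± 0.23 (adjusted p = 0.00014), -1.59 ± 0.22 (adjusted p = 0.000538) and -1.05 ± 0.22 (adjusted p = 0.0192) with BMP4-TGFB2, TGFB2 and BMP4. The BMP4 calls of Parp9 and Dtx3l were lost without BMP4 replicate 2, BMP4 replicate 3, NT replicate 1 or NT replicate 2 (adjusted p = 0.0589 to 0.0777 for Parp9 and 0.058 to 0.103 for Dtx3l). Reads in the exon bases that Parp9 and Dtx3l share (9.4% of Parp9 and 8% of Dtx3l) cannot be told apart by strand, as the libraries were unstranded. Parp10, a mono-ADP-ribosyltransferase, did not pass: it had 44.9, 36.2 and 32.0 CPM with BMP4-TGFB2, 40.6, 38.2 and 32.9 CPM with TGFB2, 66.1, 37.3 and 32.8 CPM with BMP4, and 84.6, 44.5 and 34.6 CPM in NT. The ranges of Parp10 overlapped throughout. It shares 4.8% of its exon bases with Plec, whose mean CPM was 1340% of its own.

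The interferon-induced GTPases comprise Mx proteins that trap viral nucleocapsids, and guanylate-binding and immunity-related GTPases that act on the vacuoles of intracellular pathogens. Of 9 genes, 8 fell with BMP4-TGFB2 and with TGFB2 and 4 fell with BMP4. Of the guanylate-binding genes Gbp3 and Gbp7 passed with BMP4, and whether they differ from the others there was not tested. Gbp9 had 4.49, 8.13 and 3.88 CPM with BMP4-TGFB2, 4.55, 8.06 and 6.29 CPM with TGFB2, 53.9, 62.2 and 41.1 CPM with BMP4, and 95.8, 35.0 and 44.9 CPM in NT. BMP4 and NT overlapped, and all 6 libraries with TGFB2 lay below them. Its log2 fold change was -3.40 ± 0.41 (adjusted p = 0.000146) with BMP4-TGFB2, -3.23 ± 0.40 (adjusted p = 0.000257) with TGFB2 and -0.13 ± 0.37 (adjusted p = 0.909) with BMP4.

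Gbp2 too was lower in every library with TGFB2 than in the BMP4 and NT libraries, with 35.3, 50.4 and 19.2 CPM with BMP4-TGFB2, 32.5, 33.4 and 21.8 CPM with TGFB2, 93.2, 75.4 and 66.1 CPM with BMP4, and 127, 60.8 and 62.1 CPM in NT. It fell with TGFB2 by -1.52 ± 0.36 (adjusted p = 0.0108) and with BMP4-TGFB2 by -1.24 ± 0.35 (adjusted p = 0.0246), and the call with BMP4-TGFB2 was lost without NT replicate 1 (adjusted p = 0.0969), without BMP4-TGFB2 replicate 1 (0.0661) or without BMP4-TGFB2 replicate 3 (0.0672). Irgm1, which helps to mature phagosomes, had 43.1, 41.8 and 49.6 CPM with BMP4-TGFB2, 45.8, 40.4 and 60.1 CPM with TGFB2, 75.0, 45.4 and 50.9 CPM with BMP4, and 197, 116 and 80.1 CPM in NT. All treated libraries of Irgm1 lay below NT, and the 3 treated groups overlapped each other. Its log2 fold changes were -1.53 ± 0.30 (adjusted p = 0.00314), -1.44 ± 0.30 (adjusted p = 0.00535) and -1.17 ± 0.29 (adjusted p = 0.042) with BMP4-TGFB2, TGFB2 and BMP4, the last lost in 9 of the 12 fits that leave out 1 library (adjusted p = 0.0538 to 0.14). Iigp1, a GTPase recruited to parasite vacuoles, had 0.413, 1.09 and 0.517 CPM with BMP4-TGFB2, 0.545, 0.691 and 1.07 CPM with TGFB2, 2.23, 0.700 and 1.83 CPM with BMP4, and 18.5, 4.12 and 3.83 CPM in NT. NT replicate 1 of Iigp1 stood far above the other NT libraries, which still lay above all treated ones. Mx1 was near the limit of detection, at 0.110, 0.385 and 0.0969 CPM with BMP4-TGFB2, 0.166, 0 and 0.226 CPM with TGFB2, 0.127, 0.318 and 0.152 CPM with BMP4, and 0.746, 0.645 and 0.599 CPM in NT. All treated libraries of Mx1 were below NT, but no comparison passed (adjusted p = 0.155, 0.0784 and 0.305). Igtp shares 8.01% of its exon bases with Irgm2, whose mean CPM was 136% of its own.

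Among effectors that act on RNA and nucleotides, 5 of 6 fell with BMP4-TGFB2 and with TGFB2, and 3 of 6 fell with BMP4. Eif2ak2 encodes PKR, the kinase that stops translation on sensing double-stranded RNA. It had 24.5, 32.6 and 27.6 CPM with BMP4-TGFB2, 28.5, 37.9 and 40.5 CPM with TGFB2, 53.3, 54.4 and 48.2 CPM with BMP4, and 145, 108 and 86.9 CPM in NT. BMP4 libraries lay between the others with no overlap on either side. The log2 fold changes of Eif2ak2 were -1.99 ± 0.19 (adjusted p = 4.07e-05), -1.68 ± 0.19 (adjusted p = 0.000137) and -1.10 ± 0.19 (adjusted p = 0.00689) with BMP4-TGFB2, TGFB2 and BMP4. Cmpk2, a mitochondrial nucleotide kinase, had 1.98, 3.43 and 2.52 CPM with BMP4-TGFB2, 2.63, 4.94 and 4.48 CPM with TGFB2, 21.7, 14.9 and 17.8 CPM with BMP4, and 86.7, 43.1 and 43.0 CPM in NT. Its BMP4 libraries, too, lay between the others with no overlap. Cmpk2 fell by -4.43 ± 0.36 (adjusted p = 1.56e-05), -3.86 ± 0.35 (adjusted p = 4.17e-05) and -1.64 ± 0.32 (adjusted p = 0.0135), the last lost without BMP4 replicate 2 (adjusted p = 0.0573). Samd9l, a translation inhibitor that restricts poxviruses, had 24.5, 40.6 and 30.1 CPM with BMP4-TGFB2, 31.1, 35.4 and 40.8 CPM with TGFB2, 39.3, 42.2 and 47.1 CPM with BMP4, and 106, 85.6 and 84.3 CPM in NT. It fell in all 3 treated groups, whose ranges overlapped each other but not NT.

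Ddx60, a helicase that helps RNA sensing, had 0.909, 1.51 and 1.26 CPM with BMP4-TGFB2, 1.64, 1.84 and 1.92 CPM with TGFB2, 19.6, 10.7 and 9.53 CPM with BMP4, and 46.8, 18.8 and 18.9 CPM in NT. The groups with TGFB2 were lower than BMP4 in every library, and BMP4 replicate 1 was above NT replicates 2 and 3. Isg20, an exonuclease that degrades viral RNA, was the one member with a fold change above 0. It had 41.2, 38.8 and 41.4 CPM with BMP4-TGFB2, 42.9, 45.2 and 36.0 CPM with TGFB2, 49.4, 33.7 and 39.7 CPM with BMP4, and 39.4, 24.6 and 24.4 CPM in NT. Only NT replicate 1 of Isg20 overlapped the treated libraries. Its log2 fold change was 0.47 ± 0.20 (adjusted p = 0.099), 0.47 ± 0.20 (adjusted p = 0.109) and 0.50 ± 0.20 (adjusted p = 0.186) with BMP4-TGFB2, TGFB2 and BMP4, and without NT replicate 1 it was 0.74 (adjusted p = 0.0114), 0.74 (adjusted p = 0.0132) and 0.76 (adjusted p = 0.0379), past the threshold.

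Averaged over all libraries in TPM, the membrane protein genes Ifitm3 and Bst2 were the most abundant members. Ifitm3, which blocks fusion of virions in endosomes, averaged 554 ± 99.1 TPM with BMP4-TGFB2, 719 ± 102.5 with TGFB2, 969.9 ± 137 with BMP4 and 2169 ± 829.5 in NT (SD, n = 3 each). Bst2, or tetherin, which holds budding virions to the cell, averaged 130.5 ± 11.95, 206 ± 36.1, 444 ± 174 and 807 ± 239.8 TPM in the same groups. In counts, Ifitm3 had 164, 207 and 173 CPM with BMP4-TGFB2, 211, 270 and 237 CPM with TGFB2, 390, 287 and 293 CPM with BMP4, and 959, 720 and 435 CPM in NT. No treated library of Ifitm3 reached the lowest NT library. Bst2 had 58.0, 44.8 and 56.7 CPM with BMP4-TGFB2, 94.6, 67.7 and 92.3 CPM with TGFB2, 272, 119 and 161 CPM with BMP4, and 407, 344 and 222 CPM in NT, and its BMP4 replicate 1 lay within the NT range. Ifitm3 fell by -1.94 ± 0.25 (adjusted p = 0.000204), -1.57 ± 0.24 (adjusted p = 0.000942) and -1.10 ± 0.24 (adjusted p = 0.0231) with BMP4-TGFB2, TGFB2 and BMP4, and its BMP4 call was lost in 4 of the 12 fits that leave out 1 library, the same 4 as for Parp9 (adjusted p = 0.064 to 0.0886). Bst2 fell by -2.59 ± 0.31 (adjusted p = 0.00015) with BMP4-TGFB2 and -1.95 ± 0.31 (adjusted p = 0.00104) with TGFB2, with -0.79 ± 0.30 (adjusted p = 0.166) for BMP4.

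Trim21, Trim30a and Sp100 fell in both groups with TGFB2, and Trim21 also with BMP4. Trim21 is a cytosolic antibody receptor and ubiquitin ligase. It had 13.5, 19.7 and 11.2 CPM with BMP4-TGFB2, 13.1, 16.8 and 14.5 CPM with TGFB2, 33.2, 24.7 and 21.9 CPM with BMP4, and 77.9, 63.2 and 53.4 CPM in NT. The 2 groups with TGFB2 overlapped, and BMP4 lay clear of both sides. Sp100, a nuclear body protein that silences viral genomes, had 0.743, 1.61 and 4.26 CPM with BMP4-TGFB2, 1.66, 2.07 and 4.71 CPM with TGFB2, 4.92, 3.44 and 7.52 CPM with BMP4, and 31.7, 13.9 and 10.5 CPM in NT. The treated groups of Sp100 overlapped each other and lay below NT.

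Of the 9 other members 8 fell with BMP4-TGFB2 and with TGFB2, and 4 with BMP4. Ifi27l2a, a small membrane protein gene, had the lowest fold change of all 48 with BMP4-TGFB2. It had 0.0551, 0 and 0.129 CPM with BMP4-TGFB2, 0.166, 0.132 and 0.169 CPM with TGFB2, 1.75, 0.414 and 0.457 CPM with BMP4, and 17.8, 11.6 and 4.85 CPM in NT. The 4 groups did not overlap in CPM. Both groups with TGFB2 were near the limit of detection, however, so their order relative to each other is uncertain. The log2 fold change of Ifi27l2a was -7.42 ± 0.89 (adjusted p = 0.000146), -6.17 ± 0.80 (adjusted p = 0.00033) and -3.66 ± 0.68 (adjusted p = 0.0113) with BMP4-TGFB2, TGFB2 and BMP4.

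Lgals3bp, a secreted glycoprotein that binds galectins, had 38.5, 38.1 and 30.9 CPM with BMP4-TGFB2, 84.3, 64.7 and 65.7 CPM with TGFB2, 329, 130 and 87.6 CPM with BMP4, and 1020, 425 and 185 CPM in NT. Replicate 1 was the highest and replicate 3 the lowest in BMP4 and NT, and BMP4 replicate 1 lay within the NT range. Helz2, a helicase and coactivator, had 34.8, 46.9 and 40.7 CPM with BMP4-TGFB2, 34.8, 36.8 and 48.9 CPM with TGFB2, 55.1, 62.3 and 59.4 CPM with BMP4, and 152, 111 and 104 CPM in NT. The groups with TGFB2 overlapped, and BMP4 lay clear of both sides. Helz2 fell by -1.57 ± 0.18 (adjusted p = 9.78e-05), -1.62 ± 0.18 (adjusted p = 0.000112) and -1.03 ± 0.17 (adjusted p = 0.00689) with BMP4-TGFB2, TGFB2 and BMP4. Rtp4, which restrains a TANK-binding kinase in antiviral signalling, had 9.97, 10.7 and 12.1 CPM with BMP4-TGFB2, 20.4, 14.6 and 22.7 CPM with TGFB2, 84.3, 46.6 and 41.3 CPM with BMP4, and 161, 129 and 83.0 CPM in NT. The BMP4 and NT ranges of Rtp4 overlapped by 1 library of BMP4, and the other groups did not overlap. Ifi35, a regulator of innate signalling, had 45.9, 36.8 and 31.8 CPM with BMP4-TGFB2, 48.4, 43.6 and 32.9 CPM with TGFB2, 103, 53.9 and 48.6 CPM with BMP4, and 148, 103 and 66.8 CPM in NT. Replicate 1 was its highest library in each group. Ifi35 fell with BMP4-TGFB2 (-1.46 ± 0.33, adjusted p = 0.00724) and TGFB2 (-1.36 ± 0.33, adjusted p = 0.0117). Tor3a, an ATPase of the endoplasmic reticulum, had 52.1, 45.2 and 34.4 CPM with BMP4-TGFB2, 55.6, 40.4 and 39.1 CPM with TGFB2, 62.7, 38.7 and 41.3 CPM with BMP4, and 142, 47.8 and 44.9 CPM in NT. Its groups overlapped in every comparison with NT, and NT replicate 1 stood far above all other libraries.

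**Figure D3:**
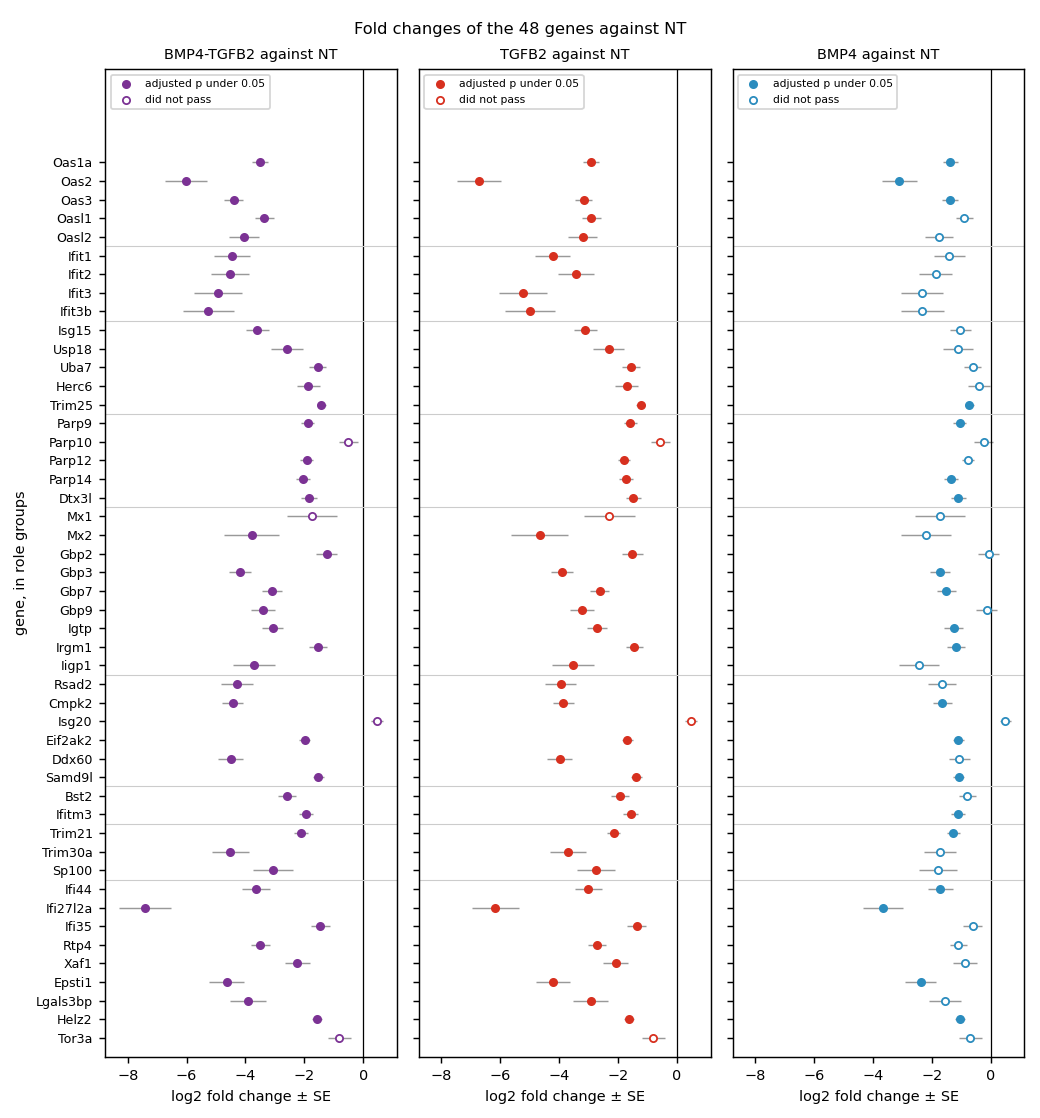
Log2 fold change against NT with its SE for each of the 48 genes, in role groups, with BMP4-TGFB2 (left), TGFB2 (middle) and BMP4 (right); filled points passed at an adjusted p under 0.05. The filled points number 44, 44 and 20, and Isg20 is the one gene to the right of 0 in each panel.

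With BMP4 alone, the members that fell were Oas1a, Oas2, Oas3, Trim25, Parp9, Parp14, Dtx3l, Gbp3, Gbp7, Igtp, Irgm1, Cmpk2, Eif2ak2, Samd9l, Ifitm3, Trim21, Ifi44, Ifi27l2a, Epsti1 and Helz2. None of the 4 IFIT genes was among them, although their median of -2.09 was the lowest of any role group with BMP4. For these 4 genes NT replicate 1 was at 2.68 to 7.98 times the mean of NT replicates 2 and 3. The role groups were not ranked without it. The same-numbered libraries of BMP4 and NT deviated together, and with the replicate number as a block 37 members fell and Isg20 rose (0.51, adjusted p = 0.0476). Over all genes 6.78% fell and 8.6% rose with the block, against 2.25% and 3.19% without it. With that block Isg15 passed at -1.07 (adjusted p = 0.0361), Ifit3 at -2.03 (adjusted p = 0.0323), Bst2 at -0.85 (adjusted p = 0.0311), Usp18 at -1.07 (adjusted p = 0.0213), Lgals3bp at -1.50 (adjusted p = 0.0194), Rtp4 at -1.12 (adjusted p = 0.0165), Iigp1 at -2.32 (adjusted p = 0.0389), Sp100 at -1.96 (adjusted p = 0.0407) and Ifi35 at -0.61 (adjusted p = 0.0224). Of the 20 members called without the block, 7 passed in each of the 12 fits that leave out 1 library: Oas1a, Parp14, Eif2ak2, Samd9l, Trim21, Ifi27l2a and Helz2. Oas2 was lost without BMP4 replicate 2 or NT replicate 2 (adjusted p = 0.0528 to 0.0709), and Oas3 without BMP4 replicate 2 or BMP4 replicate 3 (adjusted p = 0.062 to 0.0683). The count of 20 was 12 without NT replicate 1, 11 without NT replicate 2, 7 without BMP4 replicate 2 and 10 without BMP4 replicate 3.

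Both ligands together were then set against each ligand alone. Against BMP4, 30 members fell with BMP4-TGFB2, where 4.98% of all genes fell. With the replicate number as a block 37 fell, where 12% of all genes fell. All 48 fold changes were below 0, against 49.7% of all genes. Every library of BMP4-TGFB2 was below every BMP4 library for 40 members, against 13.7% of genes, and the median log2 fold change was -1.60. The count was 15 without BMP4-TGFB2 replicate 1, and 15 of the 30 passed in each of the 12 fits that leave out 1 library. The IFIT genes (median -2.81) and OAS genes (median -2.47) had the lowest medians, and the PARP and DTX3L group the highest (-0.75). Ddx60 fell by -3.45 ± 0.42 (adjusted p = 0.000825), Gbp9 by -3.26 ± 0.41 (adjusted p = 0.000929) and Oas3 by -3.04 ± 0.30 (adjusted p = 0.000294), all 3 with no overlap between groups. Irgm1, by contrast, had a difference of -0.36 ± 0.29 (adjusted p = 0.51) with overlapping libraries.

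Against TGFB2, BMP4-TGFB2 changed no member by the edgeR test, and 0% of all genes passed. With the replicate number as a block no member passed either, where 0.0261% of all genes fell and 0.0131% rose. At an unadjusted p under 0.05 there were 3 members (Oas1a, Oas3 and Rtp4), as for 3.37% of genes. DESeq2 and edgeR with no filter on low counts each called 1 member, Oas3. The median log2 fold change was -0.29, with 38 members below 0, against 49.9% of genes. Every BMP4-TGFB2 library was below every TGFB2 library for 12 members, against 4.33% of genes. Ifi27l2a is among the 12, with both groups near the limit of detection. For Oas3 the value was -1.24 ± 0.28 (adjusted p = 0.576 in edgeR, -1.22 with adjusted p = 0.205 under the block, and -1.24 with adjusted p = 0.0195 in DESeq2). For Rtp4 it was -0.79 ± 0.30 and for Oas1a -0.60 ± 0.26 (adjusted p = 1 for both). A p above the threshold does not show that the 2 groups are alike.

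BMP4 alone against TGFB2 alone gave 18 members higher with BMP4, where 4.16% of all genes were, and all 48 had a fold change above 0 (median 1.30), while 49.8% of genes were below 0. Every BMP4 library was above every TGFB2 library for 37 members, against 10.9% of genes. The 18 were Oas1a, Oas2, Oas3, Oasl1, Ifit1, Ifit3, Isg15, Parp12, Gbp2, Gbp3, Gbp9, Igtp, Rsad2, Cmpk2, Ddx60, Bst2, Trim21 and Rtp4. The largest was Oas2, at 3.63 ± 0.69 (adjusted p = 0.00878), followed by Gbp9 at 3.10 ± 0.40 (adjusted p = 0.00115). Same-numbered libraries of these groups deviated together, and with the block 33 members passed, where 10% of all genes were higher with BMP4. Without NT replicate 1, which enters this fit through the shared spread, 28 passed, where 4.29% of all genes were higher with BMP4. Of the 18, 11 passed in each of the 12 fits that leave out 1 library.

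The interaction asks whether the effect of both ligands differs from the sum of the single effects on the log2 scale. No member passed by the edgeR test, while 0.104% of genes passed below 0 and 0.0522% above 0. At an unadjusted p under 0.05 there were 16 members, against 8.42% of genes. The value was below 0 for 2 members, against 52% of genes, and above 0 for 46, with a median of 0.82, where positive means a smaller fall than the sum of both. Without NT replicate 1 the median was 0.34 and 11 members were below 0. The 3 smallest p-values were of Helz2 (1.09 ± 0.25, adjusted p = 0.141), Trim21 (1.30 ± 0.32, adjusted p = 0.187) and Oas2 (3.81 ± 0.96, adjusted p = 0.189). These 3 were called by DESeq2 and by edgeR with no filter on low counts. With the replicate number as a block Trim21 passed in edgeR (1.27, adjusted p = 0.0448), where 1.24% of all genes passed below 0 and 0.588% above 0. Oas2 also passed without TGFB2 replicate 3 (5.83, adjusted p = 0.0371), a fit whose TGFB2 libraries had 0.0711 and 0 CPM. With TGFB2 so near the limit of detection, the size of the Oas2 interaction is uncertain in both fits. The TGFB2, BMP4 and BMP4-TGFB2 effects share the same NT libraries.

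Replicate 1 was the highest library for most members in BMP4 and NT, but not in the groups with TGFB2. Replicate 1 was the highest of its group for 8 members with BMP4-TGFB2, against 36% of genes, and for 11 members with TGFB2, against 33.6% of genes. It was the highest for 39 members with BMP4, against 39% of genes, and for 47 in NT, against 44.3% of genes. The median ratio of replicate 1 to the mean of replicates 2 and 3 was 0.817 with BMP4-TGFB2, 0.925 with TGFB2, 1.53 with BMP4 and 2.01 in NT, and it ran from 1.06 to 7.98 in NT. Above a ratio of 2 were 11 members with BMP4, against 6.41% of genes, and 26 members in NT, against 8.64% of genes. The highest ratios in NT were 7.98 for Ifit3b, 7.45 for Ifit3 and 4.66 for Iigp1.

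As a mean over all members of log2 CPM relative to NT, the libraries of replicates 1, 2 and 3 lay at -3.12, -2.73 and -2.80 with BMP4-TGFB2, at -2.61, -2.75 and -2.42 with TGFB2, at -0.81, -1.50 and -1.36 with BMP4, and at 0.75, -0.20 and -0.55 in NT. NT thus spread over more of this scale than any treated group, and still no treated library reached its lowest library. In a joint edgeR test of replicate number with group as a covariate, 9 members passed, against 25.2% of genes, so the share of members (18.8%) was not above that of all genes. They were Ifit3b, Usp18, Parp9, Parp10, Gbp3, Ifi35, Xaf1, Lgals3bp and Tor3a. That test looks for an effect of the number that is the same in all 4 groups. The labels give the numbers 1 to 3 in each group and do not say what a number marks.

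**Figure D4:**
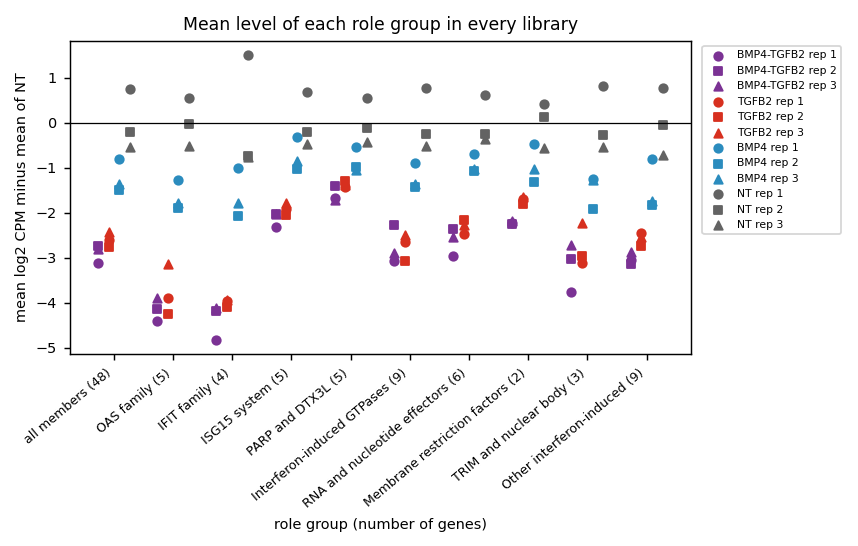
Mean log2 CPM relative to NT of all 48 genes and of each role group in every library, with groups as colours and replicate numbers as shapes. In every role group the libraries with TGFB2 lie below the BMP4 libraries, and NT replicate 1 is the highest point.

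**Figure D5:**
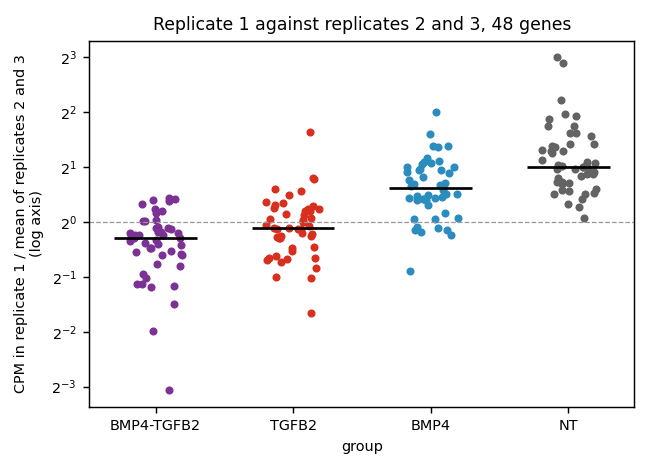
Ratio of CPM in replicate 1 to the mean of replicates 2 and 3 for each of the 48 genes (points, log axis) in each group, with the median as a bar. The medians are 0.817, 0.925, 1.53 and 2.01 from left to right.

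Because NT replicate 1 is high, the falls were also measured without it. The members that fell then numbered 43 with BMP4-TGFB2 and 44 with TGFB2, where 12.5% and 10.8% of all genes fell. Their median log2 fold changes were -2.59 and -2.23. With BMP4 12 fell, where 1.68% of all genes did, the median was -0.79 and 42 members were below 0. Without all 4 replicate 1 libraries the counts were 42, 42 and 16, and the medians -2.51, -2.23 and -1.04. Of all genes 15.9%, 13.3% and 1.75% fell in that fit.

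Of 11 interferon ligand genes none had enough counts to be tested, and 9 were at 0 in all 12 libraries. Only Ifnb1 and Ifnl2 had any counts. Ifnb1, the early type I interferon, had 0.0826, 0.140 and 0 CPM with BMP4-TGFB2, 0 in all 3 libraries with TGFB2, 0.558, 0.287 and 0.0609 CPM with BMP4, and 0.506, 0 and 0.0299 CPM in NT. Both genes were too low for the test, and no order is read from these values. Of 6 receptor subunits 0 passed below 0 and 1 rose with BMP4-TGFB2 (12.9% of all genes fell and 13.3% rose) and with TGFB2 (11.1% fell and 11.3% rose), so these counts are near those shares. The gene that rose was Ifngr1, the ligand-binding chain for interferon gamma, at 0.37 ± 0.11 (adjusted p = 0.0295, lost without BMP4-TGFB2 replicate 1, BMP4-TGFB2 replicate 2 or NT replicate 2) and 0.52 ± 0.11 (adjusted p = 0.0065). Ifnar2, a chain of the type I receptor, gave -0.49 ± 0.18 (adjusted p = 0.0695) and -0.39 ± 0.18 (adjusted p = 0.155), and Il10rb, a chain of the type III receptor, -0.12 ± 0.22 and -0.20 ± 0.22 (adjusted p = 0.737 and 0.561).

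Of the 12 JAK, STAT and IRF genes reported here, 3 fell with BMP4-TGFB2 (12.9% of all genes) and with TGFB2 (11.1%), and 0 rose. Their median log2 fold change was 0.10 with BMP4-TGFB2 and -0.10 with TGFB2. The 3 that fell were Stat2, Irf9 and Irf7, which are themselves interferon-induced. Stat2 fell by -2.04 ± 0.41 (adjusted p = 0.00352) with BMP4-TGFB2 and -1.91 ± 0.40 (adjusted p = 0.00621) with TGFB2. Irf7, the factor that amplifies type I interferon, had 8.76, 7.95 and 9.76 CPM with BMP4-TGFB2, 16.4, 10.5 and 13.1 CPM with TGFB2, 134, 56.8 and 52.0 CPM with BMP4, and 469, 217 and 121 CPM in NT. It fell by -4.91 ± 0.53 (adjusted p = 7.46e-05) and -4.34 ± 0.51 (adjusted p = 0.000187) in the groups with TGFB2. With BMP4 none of these 3 genes passed (adjusted p = 0.209 for Stat2, 0.305 for Irf9 and 0.0554 for Irf7), while with the replicate block Irf7 (-1.68, adjusted p = 0.00616), Irf9 (-0.59, adjusted p = 0.0194) and Stat2 (-0.89, adjusted p = 0.0464) did. Tyk2, the kinase on the type I receptor, was at -0.24 ± 0.15 (adjusted p = 0.254) and -0.18 ± 0.15 (adjusted p = 0.413), and Irf1 at 0.31 ± 0.20 (adjusted p = 0.277) and 0.19 ± 0.20 (adjusted p = 0.534). Irf9 shares 2.28% of its exon bases with Rnf31 and Irf7 1.19% with Phrf1, whose mean CPM were 66.7% and 103% of theirs.

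Of 14 sensors and adaptors, 9 fell with BMP4-TGFB2 (12.9% of all genes), 8 with TGFB2 (11.1%) and 2 with BMP4 (2.25%), and 0 rose. Tlr3, the endosomal sensor of double-stranded RNA, fell by -2.39 ± 0.15 (adjusted p = 4.66e-06), -2.21 ± 0.15 (adjusted p = 8.99e-06) and -0.61 ± 0.15 (adjusted p = 0.0356) with BMP4-TGFB2, TGFB2 and BMP4. Dhx58, or LGP2, a cytosolic RNA sensor, fell by -4.19 ± 0.43 (adjusted p = 5.86e-05), -3.41 ± 0.41 (adjusted p = 0.000218) and -1.57 ± 0.38 (adjusted p = 0.0372). The BMP4 calls were lost in 8 of the 12 fits that leave out 1 library for Tlr3 and in 9 for Dhx58. Ifi204, a DNA sensor, had 5.53, 7.11 and 7.56 CPM with BMP4-TGFB2, 5.95, 3.95 and 5.33 CPM with TGFB2, 34.8, 23.7 and 35.4 CPM with BMP4, and 49.8, 19.5 and 21.7 CPM in NT. Like Gbp9, it was low in both groups with TGFB2, and its BMP4 and NT libraries overlapped (0.08 ± 0.33 with BMP4, adjusted p = 0.945).

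Of 6 negative regulators of the pathway, 3 fell and 1 rose with BMP4-TGFB2 (12.9% and 13.3% of all genes), and 1 fell and 1 rose with TGFB2 (11.1% and 11.3%), the last pair near the shares of all genes. The one that rose was Socs3, which blocks JAK kinases. It had 63.2, 54.5 and 62.6 CPM with BMP4-TGFB2, 75.5, 58.2 and 62.4 CPM with TGFB2, 40.4, 34.8 and 43.0 CPM with BMP4, and 24.4, 14.1 and 30.1 CPM in NT. Socs3 was higher in every treated library than in every NT library, and rose by 1.41 ± 0.23 (adjusted p = 0.0011) with BMP4-TGFB2 and 1.50 ± 0.23 (adjusted p = 0.000938) with TGFB2, with 0.81 ± 0.23 for BMP4 (adjusted p = 0.0667, or 0.84 and adjusted p = 0.00765 with the replicate block). Nlrc5, an NLR protein that also drives class I antigen presentation genes, fell in all 3, by -2.90 ± 0.49 (adjusted p = 0.0013), -2.51 ± 0.48 (adjusted p = 0.00339) and -1.77 ± 0.46 (adjusted p = 0.0499, lost in 11 of the 12 fits that leave out 1 library). As a check of ligand response, Smad7, an inhibitory SMAD induced by both ligands, rose by 2.16 ± 0.14 (adjusted p = 4.66e-06), 1.63 ± 0.14 (adjusted p = 3.12e-05) and 1.57 ± 0.14 (adjusted p = 0.000243).

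By promoter letters, the 18 genes with an ISRE core all fell with BMP4-TGFB2 and with TGFB2, with median log2 fold changes of -3.55 and -3.01. Of the 18 genes whose window lacked those letters 17 fell in each, with medians of -2.08 and -1.93, and of the 12 genes with no window 9 fell, with medians of -2.99 and -2.51. With BMP4 the medians were -1.31, -1.05 and -1.22. The genes in these classes share libraries and were not drawn at random, so the medians are given as a description. Isg20, the gene lacking the ISRE letters that did not fall, had a window with a GAS core and no ISRE core. Absence of the letters says only that they are not in this window.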

How the data were processed

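The submitters' processing notes name Salmon 1.2.1, STAR 2.7.5b and bcl2fastq 2.17 with build GRCm38.p6, without roles or settings. Per the file headers, the authors deposited estimated counts per gene, of which 82.9% were whole, a signal table of those counts divided by 1 size factor per library, and TPM scaled for length and depth. All 12 libraries were listed as unstranded and as the same batch, per the file headers.

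The estimated counts were rounded, which changed the total by 0.000361%. Genes passing the filterByExpr minimum count of 10 (15319 of 54347, with 99.95% of counts) entered one edgeR 4.0.16 model by group over all 12 libraries (R 4.3.3, TMM factors, quasi-likelihood test, Benjamini-Hochberg adjustment, threshold 0.05). Adjusted p-values come from that model except where a tool is named. A ± gives the SE of a log2 fold change, or the SD of CPM or TPM over 3 libraries. The common biological coefficient of variation was 0.299. No 2 libraries agreed within sampling noise: chi-square divided by its degrees of freedom was at least 19 for every pair. The fit was tested on simulated data. Alternatives used DESeq2 1.42.0, limma 3.58.1 (voom, and log2 of TPM plus 0.1), DESeq2 size factors, no filter, a replicate block, fewer groups and left-out libraries.

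The members and all gene lists were chosen with earlier results of these data known. Values per library are given for the 2 most abundant members of each role group, members not passing or above 0 with TGFB2, up to 3 with the smallest p for the interaction, BMP4-TGFB2 against either ligand or the replicate number, and the 3 largest and 3 smallest changes with BMP4. Same-numbered libraries deviated together (every pair's correlation across genes above 0.1) in BMP4-TGFB2 against TGFB2 (0.23 to 0.50), BMP4-TGFB2 against BMP4 (0.15 to 0.35), BMP4 against NT (0.16 to 0.44) and the direct comparison of the single ligands (0.15 to 0.35). In TGFB2 against NT (0.08 to 0.30) and BMP4-TGFB2 against NT (0.03 to 0.23) the correlations were also positive, but that of replicate 2 was under 0.1. Positions are from GENCODE M21; the identifiers of Isg15 and Mx1 have another version there. One signalling gene of the pathway lists is not reported here.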

Additional observations from a re-analysis of the deposited data

How the results depend on the processing

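Of the members that fell with TGFB2 against NT, counts lay between 34 and 44 when libraries were left out (44 for any 1 library, 34 without every replicate 2), and between 38 and 44 with BMP4-TGFB2. The count with BMP4 was the least stable: 20 fell, against 36 with no filter on low counts, 37 with the replicate block, 11 with only the groups compared, and 0 to 26 when libraries were left out, the 0 without every replicate 2. BMP4-TGFB2 against BMP4 gave 6 to 38 when libraries were left out. BMP4 against TGFB2 (18) gave 31 with no filter, 31 with DESeq2, 33 with the replicate block and 1 to 28 with libraries left out. In place of 0 rises, Isg20 rose (1 member) with the replicate block in TGFB2, BMP4 and BMP4-TGFB2 against NT, and with limma on TPM in BMP4-TGFB2 against NT; leaving libraries out gave 0 to 1 in each. BMP4-TGFB2 against TGFB2 gave 1 (Oas3) with no filter and with DESeq2, in place of 0. The interaction gave 3 with no filter and with DESeq2, 1 (Trim21) with the replicate block and 0 to 1 with libraries left out. The replicate number test (9) gave 14 with no filter, 16 with limma voom, 3 with limma on TPM and 4 to 12 with libraries left out. The cause of these shifts was not tested. The block called 3, 18, 2, 7 and 15 more members in TGFB2, BMP4 and BMP4-TGFB2 against NT, BMP4-TGFB2 against BMP4, and BMP4 against TGFB2, and lost none of those called without it. The share of all genes called rose with the block too. In TGFB2, BMP4 and BMP4-TGFB2 against NT 19.2%, 6.78% and 21% of genes fell, against 11.1%, 2.25% and 12.9% without it. For the 31 members chosen for values per library, over comparisons and alternatives, 4334 of 4732 results kept their direction and side of the threshold, 197 no longer passed and 105 newly passed. The other 96 changed sign without passing on either side, 45 of them in BMP4-TGFB2 against TGFB2 and 23 in the interaction, with values of up to 0.86 in size on the log2 scale. No result that passed changed sign. Depth limits the values of Mx1, Mx2, Oas2 and Ifi27l2a, which had 0 counts in at least 1 library.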
